A study of Mus musculus with 6 samples.

Results

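The Th2 cytokine locus is a stretch of mouse chromosome 11 that holds the interleukin genes Il4, Il13 and Il5, with the DNA repair gene Rad50 between Il13 and Il5 and the kinesin gene Kif3a beside Il4. These 5 genes were taken by symbol from the deposited table of 14868 genes, and all 5 were present and passed the filter on low values (14864 genes were tested). They were measured in naïve CD4+ T cells, from wild-type (WT) mice or mice lacking Ikzf4 (labelled Ikzf4-/-), both on the C57BL/6J background. Ikzf4 encodes Eos, a zinc finger transcription factor of the Ikaros family. All cells were stimulated for 72 h on plate-bound anti-CD3 (5 µg/mL) and anti-CD28 (2 µg/mL), with interleukin-4 at 10 ng/mL and anti-Ifng, a blocking antibody to interferon gamma, at 10 µg/mL, conditions that drive T helper 2 (Th2) differentiation. There were 3 libraries of total RNA per genotype. The labels used here give no allele, age or sex, and do not say whether replicates came from separate mice or cultures, so p-values measure the spread between these libraries, which may be technical.

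Th2 cells make interleukin-4, interleukin-13 and interleukin-5, which drive IgE class switching, mucus production and eosinophil growth in allergy and in defence against worms. The 3 genes are opened and transcribed under shared control regions, among them a locus control region in the 3′ part of Rad50, with GATA3, STAT6 and the calcium-driven factor NFAT as known regulators. Rad50 and Kif3a are expressed in many cell types and are not cytokine genes, so they serve as the nearest local comparison. On GRCm38 the 5 genes span 157.7 kb, from 53567379 to 53725106. Kif3a (ENSMUSG00000018395, 53567379 to 53601967, plus strand) and Il4 (ENSMUSG00000000869, 53602982 to 53618669, minus strand) point toward each other, with 1014 bp between their 3′ ends. Il13 (ENSMUSG00000020383, 53631324 to 53634702, minus strand) lies beyond the start of Il4, followed by Rad50 (ENSMUSG00000020380, 53649519 to 53707319, minus strand) and Il5 (ENSMUSG00000036117, 53720794 to 53725106, plus strand). The annotation places an antisense gene, Gm12214, over part of Il5, and whether the counting used strand is not given in the sources used here, so reads of these 2 genes cannot be told apart.

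To show what the cytokine genes carry next to their starts, the 250 bases before each are printed, with those of Kif3a for contrast. The RefSeq promoter table (GRCm38.p6) held 4 of the 5 genes, and of its 2 starts for Il4 the one 4 bp from the annotated gene start is shown. Capitals mark GGAAA, the core letters bound by NFAT, and GATA, the core letters bound by GATA factors, on either strand.
Il4, chr11:53618666-53618915 (-): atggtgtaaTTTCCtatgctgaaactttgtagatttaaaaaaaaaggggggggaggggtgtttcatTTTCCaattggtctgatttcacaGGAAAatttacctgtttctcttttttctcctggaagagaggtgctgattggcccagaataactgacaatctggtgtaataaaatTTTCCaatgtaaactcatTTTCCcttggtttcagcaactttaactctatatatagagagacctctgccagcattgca
Il13, chr11:53634703-53634952 (-): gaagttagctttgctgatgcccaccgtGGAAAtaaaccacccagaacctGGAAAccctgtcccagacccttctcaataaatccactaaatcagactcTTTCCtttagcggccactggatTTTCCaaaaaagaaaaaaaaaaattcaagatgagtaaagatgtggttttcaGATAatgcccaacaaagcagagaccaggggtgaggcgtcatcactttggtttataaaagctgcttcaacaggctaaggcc
Il5, chr11:53720544-53720793 (+): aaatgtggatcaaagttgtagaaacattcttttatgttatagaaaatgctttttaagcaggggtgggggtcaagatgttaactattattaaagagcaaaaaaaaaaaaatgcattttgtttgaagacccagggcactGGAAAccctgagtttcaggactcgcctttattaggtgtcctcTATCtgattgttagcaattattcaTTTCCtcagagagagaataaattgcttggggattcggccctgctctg
Kif3a, chr11:53567119-53567368 (+): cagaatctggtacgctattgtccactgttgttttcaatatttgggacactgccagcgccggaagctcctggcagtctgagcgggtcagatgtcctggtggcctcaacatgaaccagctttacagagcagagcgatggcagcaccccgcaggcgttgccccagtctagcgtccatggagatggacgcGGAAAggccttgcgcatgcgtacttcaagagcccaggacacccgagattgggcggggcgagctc
The letters GGAAA occurred 5 times before Il4, 4 times before Il13, 2 times before Il5 and 1 time before Kif3a. Among 32841 promoters of the same length, 55.6% held at least 1 match, 21.4% at least 2, 1.59% at least 4 and 0.390% at least 5. GATA occurred 1 time each before Il13 and Il5 and was not among these letters before Il4 and Kif3a, against 53.6% of promoters with a match. The counts for Il4 depend on the start taken. The 250 bases before its other RefSeq start, which lies 1331 bp inside the annotated gene, held 3 matches to GATA (9.62% of promoters held at least as many), 0 to GGAAA, 2 to the Ikaros family core GGGAA (21.2%) and 3 to the E-box CANNTG (12.2%). In the windows printed, GGGAA occurred 1 time, before Il4, where its reverse complement overlaps a match to GGAAA, and 56.2% of promoters held it. The STAT6 spacing, TTC and GAA with 4 bases between them, also occurred 1 time, before Il4, where it overlaps another match to GGAAA, and 5.85% of promoters held it. Of the other motifs searched, the TATA box TATAAA occurred 2 times before Il13 in overlapping positions (2.10% of promoters held at least 2), and the E-box CANNTG 1 time each before Il4 and Kif3a (66.2% held it). The AP-1 letters TGANTCA (6.75% of promoters) and the STAT5 spacing, TTC and GAA with 3 bases between them (7.02%), were not found in these 4 windows. These are matches of letters on both strands, not measured binding.

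Values are normalized read counts, that is, the authors' gene counts divided by a size factor for each library. Where 3 values of a genotype are listed, they follow the replicate numbers 1, 2 and 3. The reads implied by the values were 34701390 to 40604346 per library. Ikzf4 was read first as a check of the labels, at 756, 499.6 and 483 in WT, against 25.2, 10.5 and 38.2 in Ikzf4-/- libraries. All 10 CD4 T cell marker genes were in the table, with a summed level of 131775 to 136706 in WT and 135659 to 139916 in Ikzf4-/- libraries, and 1 of the 10 was called (Cd5, log2 fold change 0.33, adjusted p of 0.0306 by limma). On the first principal component (40.2% of the variance), WT replicate 1 lay at -41.3 and the other WT libraries at -12.5 and -5.26, so this library stood apart. Values without it are given for the 5 genes, their pair differences and some of the other named genes.

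All 3 cytokine genes of the locus had lower values in every Ikzf4-/- library than in any WT library, and Il4 and Il13 passed the test of genotype. Of the 5 genes of the locus, 2 were called (adjusted p under 0.05 with limma and Benjamini-Hochberg adjustment), both lower, where 1.77% of all tested genes were called, 1.2% as lower and 0.572% as higher. All 5 had non-overlapping groups with the lower values in Ikzf4-/-, a pattern that 12.2% of tested genes showed (23.1% in either direction). Fewer Th2 cells and less RNA per cell cannot be told apart in bulk RNA.

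Il4, whose product both marks Th2 cells and drives their differentiation, had a normalized read count of 491, 427 and 430 in WT libraries and of 257, 271 and 212 in Ikzf4-/- libraries. The lowest WT library thus stood well above the highest Ikzf4-/- library. The mean fell from 449 ± 36.1 to 247 ± 30.9 (SD, n = 3 each), to 54.9% of WT. The log2 fold change was -0.87 (SE 0.12, 95% CI -1.14 to -0.60, adjusted p of 0.0144 by limma), the 22nd smallest p-value in the table. The interleukin-4 added to the medium is a protein and gives no reads. Between 211 and 475 reads stood behind each value, a counting error of 4.59% to 6.88%. The spread between replicates was 8.03% of the mean in WT and 12.5% in Ikzf4-/-. Il4 was called in 5 of 6 fits that left out 1 library, with the exception of the fit without Ikzf4-/- replicate 3 (adjusted p of 0.0571 by limma). Without WT replicate 1 the log2 fold change was -0.80 (adjusted p of 0.0104 by limma).

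Il13 encodes the cytokine that acts on airway epithelium and smooth muscle through a receptor that shares the interleukin-4 receptor chain. Its normalized read count was 2962, 3159 and 4211 in WT, against 2361, 1428 and 2145 in Ikzf4-/- libraries. WT replicate 3 was the highest and Ikzf4-/- replicate 2 the lowest, and the gap between the groups was narrower than the spread within either. The mean fell from 3444 ± 672 to 1978 ± 488 (SD, n = 3 each), to 57.4% of WT. The log2 fold change was -0.82 (SE 0.17, 95% CI -1.19 to -0.44, adjusted p of 0.0450 by limma). Among the fits that left out 1 library, Il13 was called without WT replicate 1 (adjusted p of 0.0160 by limma). It was not called without WT replicate 2 (adjusted p of 0.0837 by limma), WT replicate 3 (0.0612) or Ikzf4-/- replicates 1 (0.0626), 2 (0.0820) and 3 (0.111).

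Il5 encodes the growth and survival factor of eosinophils. Its normalized read count was 126, 88.1 and 136 in WT, against 65.6, 32.5 and 51.2 in Ikzf4-/- libraries. The groups did not overlap, and the Ikzf4-/- mean of 49.8 ± 16.6 was 42.7% of the WT mean of 117 ± 25.2 (SD, n = 3 each). Its log2 fold change of -1.24 was the largest in size of the 5 genes and also the least precise (SE 0.28, 95% CI -1.86 to -0.63), and Il5 did not pass the threshold (adjusted p of 0.0529 by limma). Without WT replicate 1 it was -1.18 (adjusted p of 0.0891 by limma), and leaving out any 1 library gave no call. Between 31 and 140 reads stood behind each value, a counting error of 8.45% to 18.0%. In the authors' deposited table, where 6.34% of genes with an adjusted p-value were under 0.05, Il5 was among them, with a log2 fold change of -1.22 and an adjusted p of 0.00209.

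Rad50, the coiled-coil subunit of the MRE11-RAD50-NBN complex that holds broken DNA ends, lies between Il13 and Il5. Its normalized read count was 3844, 3082 and 3141 in WT, against 3034, 2944 and 3038 in Ikzf4-/- libraries. The groups did not overlap, but the highest Ikzf4-/- library and the lowest WT library were close, and WT replicate 1 stood above the rest. The means were 3356 ± 424 in WT and 3005 ± 53.3 in Ikzf4-/- (SD, n = 3 each). The log2 fold change was -0.15 (SE 0.08, 95% CI -0.32 to 0.02, adjusted p of 0.332 by limma) and Rad50 was not called. Without WT replicate 1 it was -0.05 (adjusted p of 0.741 by limma). The 95% CI of Rad50 did not overlap those of Il4, Il13 and Il5.

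Kif3a encodes a motor subunit of kinesin-2, which carries cargo along microtubules and builds cilia. Its normalized read count was 676, 463 and 409 in WT, against 351, 311 and 357 in Ikzf4-/- libraries. WT replicate 1 again stood apart. The means were 516 ± 141 in WT and 339.5 ± 24.9 in Ikzf4-/- (SD, n = 3 each). The log2 fold change was -0.57 (SE 0.16, 95% CI -0.93 to -0.21, adjusted p of 0.10 by limma), so Kif3a was not called on all libraries. Without WT replicate 1 the log2 fold change was -0.36 (adjusted p of 0.173 by limma), and without WT replicate 3 it was -0.72 and called (adjusted p of 0.0366 by limma). Kif3a had an adjusted p of 0.00791 in the authors' deposited table. Its 95% CI overlapped those of all 3 cytokine genes, unlike that of Rad50, and it also overlapped the CI of Rad50 (-0.32 to 0.02). The intervals thus did not set Kif3a apart from the cytokine genes or from Rad50.

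**Figure D1:**
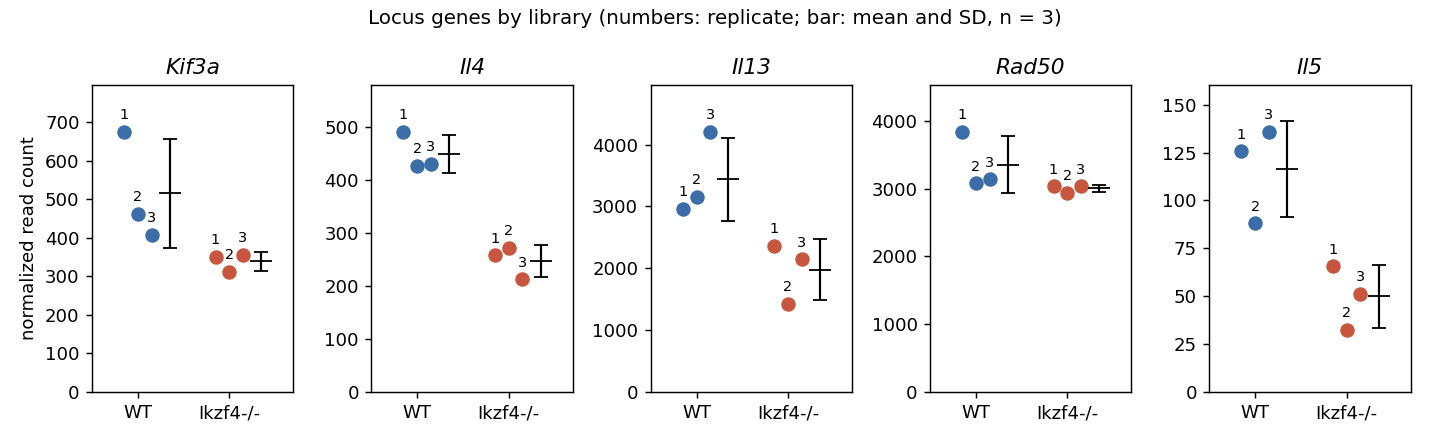
Normalized read count (vertical axis, from 0, a scale of its own for each gene) of the 5 genes in order along the chromosome, with 1 point per library numbered by replicate and the mean and SD of 3 libraries beside it. All 5 genes lie lower in each Ikzf4-/- library than in each WT library, by a narrow margin for Rad50. WT replicate 1 is the highest point for Kif3a, Il4 and Rad50.

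The cytokine genes did not follow the same order of libraries. Il13 and Il5 were both highest in replicate 3 among WT and both lowest in replicate 2 among Ikzf4-/- libraries, whereas Il4 was highest in replicate 1 among WT and highest in replicate 2 among Ikzf4-/- libraries. The ratio of Il4 to Il13 was therefore 0.190 in Ikzf4-/- replicate 2, against 0.109 and 0.0988 in Ikzf4-/- replicates 1 and 3 and 0.166, 0.135 and 0.102 in WT replicates 1 to 3. The ratio of Il4 to Il5 was 8.35 in Ikzf4-/- replicate 2, against 3.92 and 4.14 in the other Ikzf4-/- libraries and 3.16 to 4.85 in WT. The ratio of Il13 to Il5 ran from 23.6 to 35.9 in WT and from 36.0 to 44.0 in Ikzf4-/-, with no overlap by a narrow margin. Across the 6 libraries, which share genotype groups and depth, the Pearson correlation of log2 values was 0.95 between Il13 and Il5, 0.82 between Il4 and Il5 and 0.71 between Il4 and Il13, as a description. With Kif3a it was 0.80 for Il4, 0.76 for Il5 and 0.57 for Il13. With Rad50 it was 0.67 for Il4, 0.65 for Il5 and 0.40 for Il13. Il4 was thus more like Kif3a than Il13. Of 11595 other genes with a mean of at least 50, 22 were more like Il13 than Il5 was, and 1795 were more like Il4 than Il13 was.

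The genes most like each cytokine gene by this correlation over the 6 libraries came from elsewhere in the genome. For Il4 these were Pafah1b3, Fam173a and Arl10 (Pearson r of 0.991, 0.991 and 0.990). Pafah1b3 and Arl10 were themselves called, with log2 fold changes of -0.62 (adjusted p of 0.0191 by limma) and -0.92 (0.0157). Leaving out Ikzf4-/- replicate 3 ended both calls (0.0771 each), and leaving out Ikzf4-/- replicate 1 that of Pafah1b3 (0.0606). For Il13 they were Pacsin3, the sterol synthesis gene Sc5d and Gm29170 (r of 0.982, 0.980 and 0.980), and for Il5 they included Rtcb and Spata24 (r of 0.996 each). None of these 5 was called, and their log2 fold changes, from -0.33 to -0.07, were smaller than those of the cytokine genes they followed.

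Levels of the 5 genes were compared per kb of exon, as normalized read count divided by the length of the union of exons. In WT libraries Il13 was highest, at 2858 ± 557 per kb, followed by Rad50 at 624 ± 78.9, Il4 at 366 ± 29.4, Kif3a at 144 ± 39.4 and Il5 at 75.8 ± 16.4 (SD, n = 3 each). In Ikzf4-/- libraries the order was the same, at 1641 ± 405 for Il13, 559 ± 9.92 for Rad50, 201 ± 25.2 for Il4, 94.7 ± 6.95 for Kif3a and 32.4 ± 10.8 for Il5. In both genotypes the ranges of neighbours in this order did not overlap. The place of Il4 depended on its length. The union of its exons is 1227 bp but its longest transcript is 605 bp, and with the latter Il4 stood at 742 per kb in WT, above Rad50 at 651, and at 408 in Ikzf4-/-, below Rad50 at 583.

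Whether the cytokine genes differed more between genotypes than their neighbours was tested within libraries, as the difference of log2(value + 1) between a cytokine gene and a neighbour gene. Il4 minus Rad50 was -2.97, -2.85 and -2.87 in WT, against -3.56, -3.44 and -3.83 in Ikzf4-/- libraries. The groups did not overlap, and the mean difference was -0.71. Il5 minus Rad50 was -4.92, -5.11 and -4.52 in WT and -5.51, -6.46 and -5.86 in Ikzf4-/-, again with no overlap and with a mean difference of -1.09. With 3 libraries against 3, an exact two-sided permutation test cannot give a p under 0.10, which both of these reached (adjusted p = 0.30 over the 6 pairs compared, exact permutation). The other 4 pairs overlapped between genotypes. Il13 minus Rad50 differed by -0.66 (exact permutation p = 0.20), Il5 minus Kif3a by -0.67 (0.20), Il4 minus Kif3a by -0.30 (0.30) and Il13 minus Kif3a by -0.24 (0.60), with adjusted p-values of 0.30 to 0.60. All 6 mean differences were below 0, and with this number of libraries the test could resolve none of them, for Rad50 or for Kif3a. Without WT replicate 1 the differences were -0.75 for Il4, -0.87 for Il13 and -1.13 for Il5 relative to Rad50, and -0.44, -0.56 and -0.82 relative to Kif3a. Without WT replicate 3 those relative to Kif3a were smaller, at -0.18 for Il4 and -0.40 for Il5, and that of Il13 had the opposite sign, at 0.06. Without Ikzf4-/- replicate 3 Il4 minus Kif3a was -0.15, and without Ikzf4-/- replicate 2 Il13 minus Kif3a was -0.09.

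**Figure D2:**
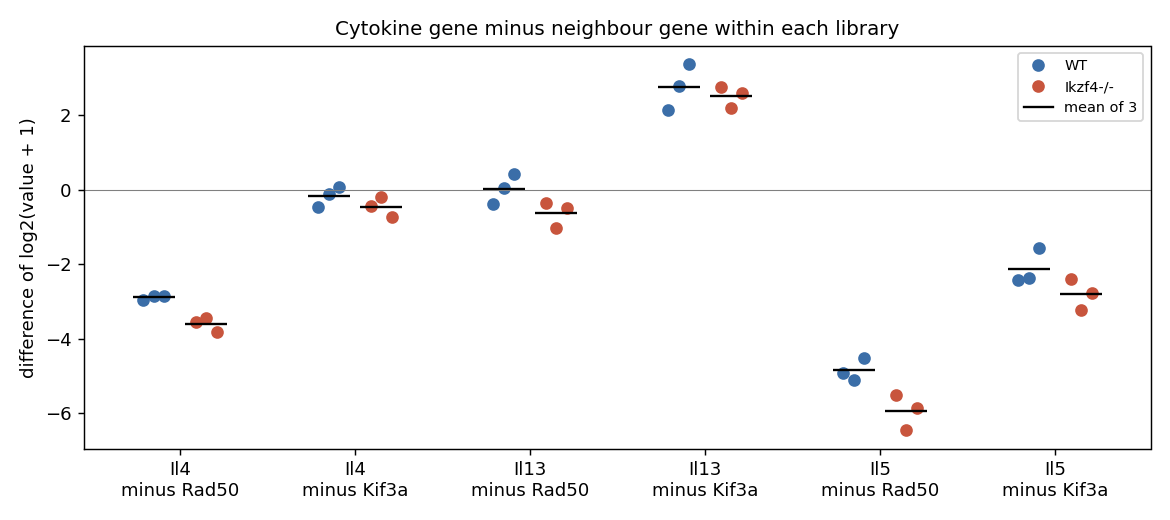
Difference of log2(value + 1) between 1 cytokine gene and 1 neighbour gene in the same library (vertical axis), with 1 point per library and a line at the mean of 3. WT and Ikzf4-/- points are apart for Il4 minus Rad50 and Il5 minus Rad50 and overlap for the other 4 pairs.

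The wider neighbourhood was read as all tested genes within 500 kb of the span of the 5 genes. There were 12 besides the 5, of 46 annotated genes in all, and 1 of the 12 was called, against the background of 1.77%. Next to the span, Sept8, a septin gene 17814 bp beyond Kif3a, had 1024, 1066 and 995 in WT, against 939, 990 and 867 in Ikzf4-/- libraries. Its log2 fold change was -0.14 (95% CI -0.30 to 0.02, adjusted p of 0.331 by limma), and -0.09 without Ikzf4-/- replicate 3. On the other side Irf1, an interferon-induced transcription factor 44908 bp beyond Il5, had 956, 1379 and 1216 in WT and 999.7, 965 and 1182 in Ikzf4-/-. The groups overlapped, and the log2 fold change was -0.16 (95% CI -0.44 to 0.11, adjusted p of 0.536 by limma). Single libraries moved this value, to -0.31 without WT replicate 1, -0.05 without WT replicate 2, -0.11 without Ikzf4-/- replicate 2 and -0.25 without Ikzf4-/- replicate 3, with no call. The 11 genes not called ran from -0.36 to -0.01, and the 95% CI of each included 0. The value of -0.36 was that of Gm12216, a gene near the floor (mean value 17.8, 95% CI -1.27 to 0.56). The median of all 12 was -0.14, against 0.00 for all genes tested, of which 48.7% lay below 0. All 12 had a log2 fold change below 0 as fitted. With quantile scaling and with equal library totals Hspa4, a heat shock protein gene, turned to 0.04 and 0.02. The sign also rested on WT replicate 1 for Hspa4, Zcchc10 and Slc22a5. Hspa4 had 18771, 16588 and 17172 in WT, against an Ikzf4-/- mean of 17402. Zcchc10 had 1003, 743 and 744 against 786, and Slc22a5 had 413, 350 and 345 against 359. For Irf1 and Gm17334, WT replicate 1 was instead the lowest WT library.

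The called neighbour was P4ha2, which encodes a subunit of the enzyme that hydroxylates prolines of collagen. It lies at 54100095 to 54131665 on the plus strand, 374989 bp beyond Il5. Its normalized read count was 628, 443 and 452 in WT, against 187, 318 and 160 in Ikzf4-/- libraries, with no overlap. The log2 fold change was -1.24 (SE 0.23, 95% CI -1.74 to -0.73, adjusted p of 0.0303 by limma), as large as that of Il5. The call was lost without WT replicate 2 (adjusted p of 0.0615 by limma), Ikzf4-/- replicate 1 (0.0903) and Ikzf4-/- replicate 3 (0.109). Among Ikzf4-/- libraries P4ha2 was highest in replicate 2, the library where Il13 and Il5 were lowest. Just outside the window, at 522 and 540.2 kb from Il5, lie Csf2 and Il3, cytokine genes for myeloid growth factors that were singled out after their values were seen. Il3 had 1842, 2590 and 2811 in WT and 2112, 2589 and 2386 in Ikzf4-/-, a log2 fold change of -0.01 (95% CI -0.31 to 0.28, adjusted p of 0.973 by limma). Csf2 had 1036, 2807 and 3147 in WT and 2212, 2166 and 2579 in Ikzf4-/-, a log2 fold change of 0.14 (95% CI -0.56 to 0.85, adjusted p of 0.859 by limma). Both overlapped between genotypes.

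**Figure D3:**
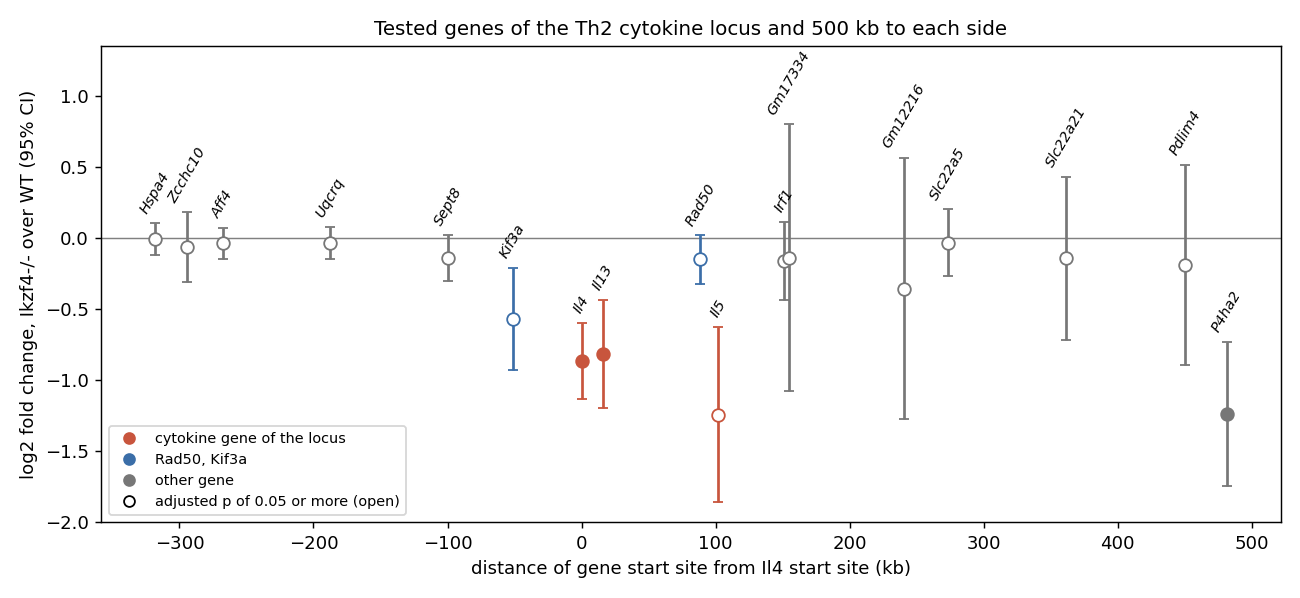
Log2 fold change of Ikzf4-/- over WT with its 95% CI (vertical axis) for the 17 tested genes of the locus and 500 kb to each side, against the distance of each start site from that of Il4 (horizontal axis, kb). Filled points are called: Il4, Il13 and P4ha2 lie below 0, and the genes between Il5 and P4ha2 have intervals that cross 0.

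Of 20 tested cytokine genes from elsewhere in the genome, 4 were called, all lower, a share of 20% against 1.77% of all tested genes (1.2% lower). The list's median log2 fold change was -0.03, against 0.00 for all genes. Il10, an anti-inflammatory cytokine gene, had 743, 465 and 360 in WT against 180, 192 and 166 in Ikzf4-/- libraries. Its WT values were scattered, its Ikzf4-/- values close together, and it fell by 1.48 on the log2 scale (adjusted p of 0.0157 by limma). Without WT replicate 1 Il10 had a log2 fold change of -1.19 (adjusted p of 0.00193 by limma). Il24, its neighbour and family member, fell by 1.60 on the log2 scale (adjusted p of 0.0144 by limma), Lif by 1.05 (0.00737) and Osm by 0.69 (0.0131), both genes of the interleukin-6 family. Leaving out Ikzf4-/- replicate 3 ended the calls of Il10 (0.0771) and Lif (0.0510), and leaving out Ikzf4-/- replicate 1 that of Il10 (0.0532). The largest differences among the 16 not called had the opposite sign. Il2, the T cell growth factor gene, had 1189, 2040 and 2798 in WT, against 3418, 3818 and 3706 in Ikzf4-/- libraries, with no overlap and a log2 fold change of 0.94 (95% CI 0.44 to 1.44, adjusted p of 0.0621 by limma). It was called without WT replicate 1 (0.61, adjusted p of 0.0106 by limma) or WT replicate 3 (1.23, 0.0107). Il17f, a Th17 cytokine gene with few reads, had a log2 fold change of 1.89 (95% CI 0.61 to 3.16, adjusted p of 0.121 by limma), and of 1.10 without WT replicate 1 (0.145).

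Interleukin-4 and interleukin-13 act through receptor chains and JAK kinases on STAT6. Of 10 tested genes of this pathway, 2 were called, both lower, a share of 20% against 1.77% of all tested genes (1.2% lower), and the median was -0.03. Il4ra, the receptor chain shared by interleukin-4 and interleukin-13, had 19694, 12253 and 11002 in WT, against 9169, 7333 and 7467 in Ikzf4-/- libraries. WT replicate 1 was far above the other WT libraries, and the groups did not overlap (log2 fold change -0.80, adjusted p of 0.0476 by limma). Without that library it was -0.55 and called (0.00724). Socs1, a feedback inhibitor of this signal, fell by 0.37 on the log2 scale (adjusted p of 0.0375 by limma). Il4ra was not called without WT replicate 2 (0.0749) or any 1 of the 3 Ikzf4-/- libraries (0.0820 to 0.164), nor Socs1 without WT replicates 2 (0.0898) and 3 (0.0522) and Ikzf4-/- replicates 1 (0.0939) and 2 (0.123). Il4ra had an adjusted p of 0.0600 in the authors' deposited table. The kinase gene Jak3 had a log2 fold change of -0.33 (adjusted p of 0.0588 by limma) and was called without WT replicate 3 (0.0273). Its adjusted p in the authors' deposited table was 0.000849. Socs5, another inhibitor, had 0.16 (0.615), with values from 0.01 without WT replicate 1 and 0.04 without Ikzf4-/- replicate 3 to 0.26 without WT replicate 3 and 0.27 without Ikzf4-/- replicate 1. Stat6, the transcription factor of the pathway, was singled out after its values were seen, with a log2 fold change of 0.09 (95% CI -0.03 to 0.22, adjusted p of 0.397 by limma).

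Of 35 transcription factors and chromatin proteins known to act at the locus, 4 were called, 3 lower and 1 higher. This share of 11.4% stands against 1.77% of all tested genes (1.2% lower and 0.572% higher), and the list's median was -0.06. Junb, an AP-1 factor that promotes Il4 transcription, fell by 0.41 on the log2 scale, from a mean of 27165 ± 3157 to 20343 ± 1435 (SD, n = 3 each, adjusted p of 0.0319 by limma). Cebpb, a bZIP factor, had a log2 fold change of -0.77 (adjusted p of 0.0436 by limma) and Runx3, known as a repressor of Il4, one of -0.71 (0.0436). Bcl6, the follicular helper factor that opposes Th2 differentiation, rose by 0.67 on the log2 scale, from a mean of 448 ± 74.9 to 707 ± 45.3 (SD, n = 3 each, adjusted p of 0.0291 by limma). Bcl6 and Runx3 lost their call without any 1 of the 3 Ikzf4-/- libraries (0.0650 to 0.111 and 0.102 to 0.123). Junb lost it without WT replicate 2 (0.0653), Ikzf4-/- replicate 1 (0.0974) or Ikzf4-/- replicate 3 (0.126), and Cebpb in each fit except that without WT replicate 3 (0.0835 to 0.109). The largest differences not called were those of the AP-1 family gene Batf (log2 fold change -0.79, adjusted p of 0.0634 by limma) and the repressor gene Gfi1 (-0.48, 0.0536), both called without WT replicate 1 (0.0203 and 0.0455) or WT replicate 3 (0.0379 and 0.0177). Without WT replicate 1 the log2 fold change of Batf was -0.52 and that of Runx3 was -0.51. Gata3, the factor that defines Th2 cells, was singled out after its values were seen, with a log2 fold change of -0.24 (95% CI -0.42 to -0.06, adjusted p of 0.146 by limma). Its adjusted p in the authors' deposited table was 0.0386. There, 8 of the 35 genes were under 0.05, against 6.34% of all genes with an adjusted p-value.

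No partner of the non-cytokine genes was called by limma, where 1.77% of all tested genes were called. At that share, lists this short could hold 0 calls, so the counts do not set the partners apart from other genes. Of 7 tested genes of the MRE11-RAD50-NBN complex and its DNA break pathway, 0 were called by limma (3 had an unadjusted p under 0.05, and 2 passed in the authors' deposited table), and the median was 0.05. The largest differences were those of the kinase gene Atm (log2 fold change 0.25, adjusted p of 0.130 by limma) and of Trp53bp1 (0.22, 0.0621), opposite in sign to Rad50. Of 15 tested genes of kinesin-2 and of the intraflagellar transport machinery that KIF3A moves, 0 were called by limma (2 had an unadjusted p under 0.05, and 0 passed in the authors' deposited table), and the median was 0.01. The largest differences were those of Ift81 (-0.72, adjusted p of 0.216 by limma) and Ift20 (-0.16, 0.174). Kif3b, whose product pairs with KIF3A in the same motor and which was singled out after its values were seen, had a log2 fold change of 0.10 (95% CI -0.05 to 0.24, adjusted p of 0.478 by limma).

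**Figure D4:**
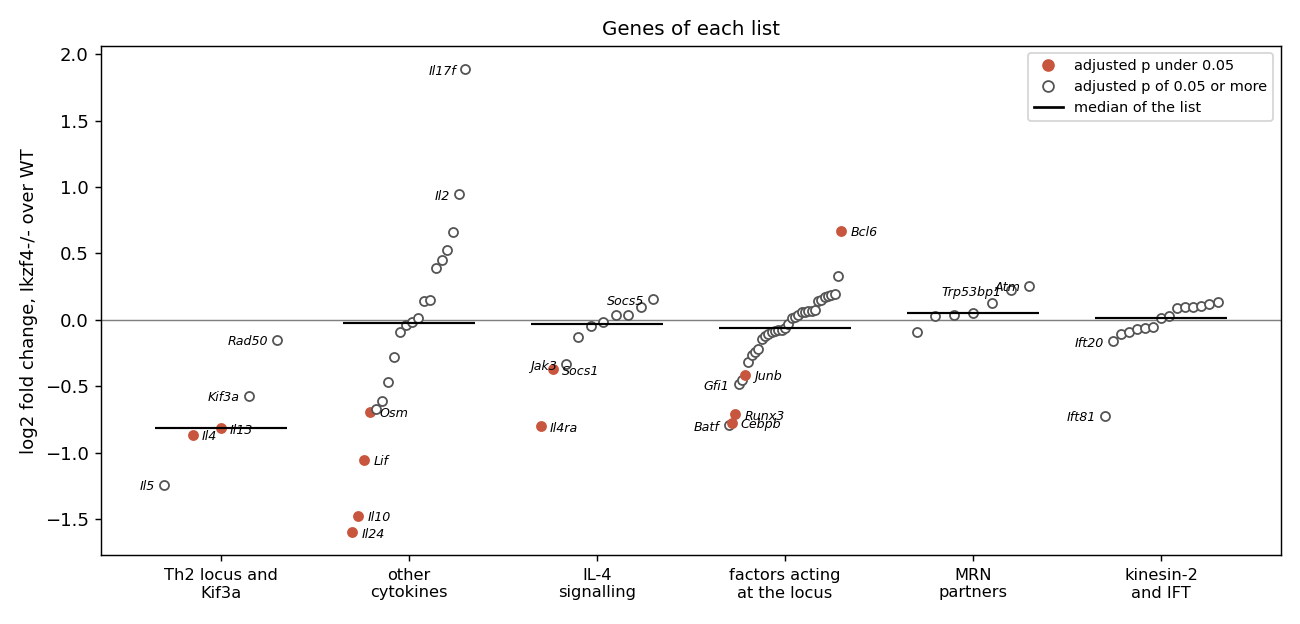
Log2 fold change of Ikzf4-/- over WT (vertical axis) for each tested gene of 6 lists, in order of size within a list, with filled points for an adjusted p under 0.05 and a line at the list's median. The median of the 5 genes of the locus is -0.82, and the medians of the other lists lie between -0.06 and 0.05.

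Other cells that make these cytokines were looked for by their markers. Of 8 mast cell and basophil markers, Hdc, Gata2 and Mcpt8 were found by symbol, while Fcer1a, Ms4a2, Cpa3, Kit and Prss34 were looked for and matched no gene of the table. The 3 summed to 2069 to 2460 in WT and 1994 to 2455 in Ikzf4-/- libraries. Nearly all of this was Hdc, the histidine decarboxylase gene, at 1999 to 2323 in WT and 1837 to 2326 in Ikzf4-/- libraries. Gata2, a mast cell and basophil transcription factor gene, had 37.3, 119 and 78.6 in WT, against 134, 125 and 129 in Ikzf4-/- libraries, so the groups did not overlap (log2 fold change 0.86, adjusted p of 0.206 by limma), and its part in the cytokine values was not tested. Mcpt8, a basophil protease gene, had 33.0, 18.9 and 2.91 in WT, against 0, 4.19 and 28.1 in Ikzf4-/- libraries. Of 6 natural killer and NKT cell markers, Klrk1 was in the table, at 20.2 to 67.4 in WT and 20.9 to 50.2 in Ikzf4-/- libraries. Both CD8 T cell markers were present, with a sum of 236 to 423 in WT and 232 to 374 in Ikzf4-/- libraries. The B cell markers Cd79a and Cd79b, 2 of 6, summed to 51.1 to 83.6 in WT and 58.6 to 90.4 in Ikzf4-/- libraries, and of 8 myeloid markers Itgax was in the table, at 6.39 to 13.5 in WT and 6.03 to 13.6 in Ikzf4-/- libraries. The sums of all 5 lists overlapped between genotypes.

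**Figure D5:**
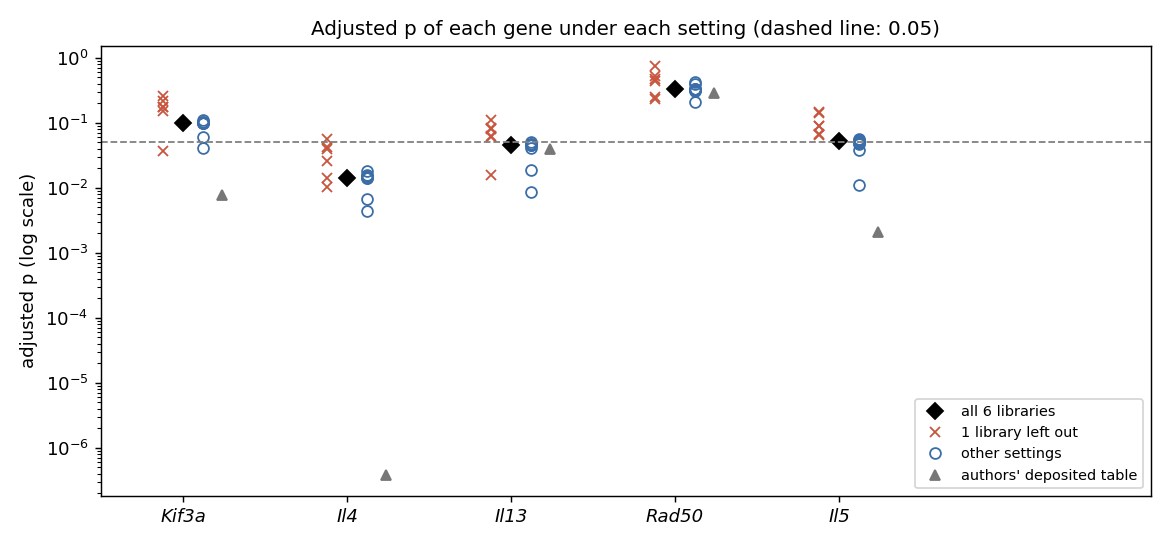
Adjusted p (vertical axis, log scale) of each of the 5 genes with all 6 libraries, with 1 library left out, under the other settings and in the authors' deposited table. Il4 lies below 0.05 in all settings but 1, Il13 and Il5 lie on both sides of it, and Rad50 lies above it throughout.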

How the data were processed

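Gene expression was measured by RNA sequencing in 3 WT and 3 Ikzf4-/- libraries, grouped and numbered by the sample titles. Per the submitters' processing notes, Trimmomatic 0.36, STAR 2.5.2b and DESeq2 were used on GRCm38; the counting tool, its strand setting and the annotation are not given in the sources used here. The deposited sample columns hold a signal that the authors made by dividing gene counts by a size factor: in each library 100% of values were whole multiples of 1 step (tolerance 0.001 reads). The deposited table also holds the authors' log2 fold changes, p-values and adjusted p-values. No count test was run, since the steps of Ikzf4-/- replicates 1 and 3 lie too near 1 for reads to be accepted as recovered.

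Values were fitted as log2(value + 1) with limma 3.58.1 (limma-trend, R 4.3.3), with genotype as the only term, for genes with a mean of at least 10. Two-sided p-values were adjusted over all 14864 genes (Benjamini-Hochberg). Fold changes on this scale understate those of low genes. Pair differences used an exact permutation test (scipy 1.17.1). The procedure was tested on simulated data in which no library stood apart, as WT replicate 1 did here, so that test does not cover such a library. Counting errors are the inverse square root of implied reads and cover counting only. Positions and lengths are from GENCODE M21. Named were Ikzf4, the 5 genes, the nearest and the called neighbours, called list genes with the 2 largest changes not called, and the 3 genes most like each cytokine gene (1 of them is not reported here); others are marked as singled out. The members and lists were chosen with earlier results of these data known. Alternatives were other scalings, filters and pseudocounts, array weights, the replicate number as a block, 1 library left out and the authors' deposited results.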

Additional observations from a re-analysis of the deposited data

How the results depend on the processing

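None of the 5 genes changed direction under any setting run. With all libraries, 263 genes were called in the table; array weights gave 482, 815 were under the threshold in the authors' deposited results, and fits without 1 library 20 to 523, with the fewest without Ikzf4-/- replicate 3. Over the latter fits the log2 fold change ran from -0.94 to -0.76 for Il4, -0.96 to -0.60 for Il13, -1.47 to -0.97 for Il5, -0.21 to -0.05 for Rad50 and -0.72 to -0.36 for Kif3a. Il13 was not called with equal library totals (-0.79, adjusted p = 0.0504). Il5 was called with a minimum of 10 in every library (-1.24, 0.04996), a pseudocount of 10 (-1.10, 0.0476), array weights (-1.21, 0.0386) and in the authors' deposited table (-1.22), as was Kif3a in that table (-0.60). The cause was not tested. Il13 minus Kif3a ran from -0.56 to 0.0597 without 1 library, the latter without WT replicate 3. Levels per kb with the longest transcript moved to 742 and 408 for Il4 in WT and Ikzf4-/-, and in Ikzf4-/- to 583 for Rad50 and 107 for Kif3a, by the shorter length used.

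Adding the replicate block raised the number of called genes to 754 and called Il5 (-1.24, adjusted p = 0.0110) and Kif3a (-0.57, 0.0414). Same-numbered libraries had correlated deviations of 0.145, 0.0122 and 0.142, and 4 of 6 libraries correlated best with their own number, which was not enough to treat the libraries as paired. Over 33 other named genes, the alternatives left direction and call as they were 472 times, ended the call 32 times, added one 23 times and reversed the sign 0 times. Of the 5 genes Il5 had the fewest reads (31 to 140), with a counting error of 8.45% to 18.0% beside a spread between replicates of 21.6% of the mean in WT and 33.4% in Ikzf4-/-.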
